A study of Ovis aries with 3 samples.

Results

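The genes described here encode the proteins of the cytosolic ribosome. They were chosen by symbol, as every row whose symbol is RPL or RPS followed by a digit, with the RPS6K kinases left out. This gave 27 of 26247 rows, of which 17043 carry a symbol. The sheep RefSeq annotation lists 77 protein-coding symbols of this form, and 26 of them are among the symbols of the files, so the rows cover only part of the ribosome. The remaining row, RPL36A-HNRNPH2, carries a joined symbol. RPS19BP1 is matched by the rule but is not a subunit: its product binds RPS19 and, in human cells, regulates the deacetylase SIRT1.

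The ribosome has a small subunit, built around 1 ribosomal RNA from RPS proteins, and a large subunit built from RPL proteins. Most of these proteins are needed in equal numbers, and their mRNAs share a pyrimidine-rich start that places their translation under the growth regulator mTOR. Ribosomal protein mRNAs are among the most abundant in growing cells, including the proliferating layer of a stratified epithelium such as that of the rumen, the first forestomach of ruminants.

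The libraries came from rumen epithelium of Hu sheep at 42 days of age, digested with trypsin and run on a droplet instrument. One library each was made from lambs given milk with alfalfa hay (hay), milk with concentrate starter (concentrate) or milk alone (milk only), and all lambs thus received milk. The number of lambs behind a library is not stated in the labels. Diet, lamb and library preparation therefore cannot be told apart, and no difference between diets had a replicate check.

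The hay, concentrate and milk-only libraries held 56861548, 60220174 and 63057979 UMIs, and 7031, 4891 and 3850 cells passed the filters. They differed in depth, with medians of 5887, 8050 and 11021 UMIs per cell. Pairs of libraries shared 2 to 8 barcodes among kept cells. The basal keratin KRT15 stood at 6303, 7879 and 7976 CPM (its UMIs scaled to the total of the cells summed) in the keratinocytes of the hay, concentrate and milk-only libraries, and the epithelial factor TP63 at 36.2, 40.8 and 41.7 CPM. The leukocyte marker PTPRC was at 0.133, 0.180 and 2.26 CPM there. Cells of the immune, fibroblast and endothelial classes were kept apart from the keratinocytes. The ribosomal protein rows were not used in the clustering that gave the classes.

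Ribosomal protein transcripts took a larger part of keratinocyte UMIs in the hay library than in the other libraries. Their share of UMIs was 16.99% (95% interval 16.98 to 17.00) over 6997 hay keratinocytes, 14.70% (14.69 to 14.72) over 4684 concentrate keratinocytes and 14.12% (14.11 to 14.13) over 3425 milk-only keratinocytes. The hay share was 1.204 times the milk-only share (1.202 to 1.205), the concentrate share 1.042 times the milk-only share (1.041 to 1.043), and the concentrate share 0.866 times the hay share (0.865 to 0.866). These intervals are narrow because many UMIs were counted, and they say nothing of the spread between lambs. The middle cell of each library kept the order: per-cell medians were 17.2% with hay, 15.1% with concentrate and 14.3% with milk only. The per-cell ranges overlapped, with the lower and upper quartiles at 15.4% and 18.8% in hay cells, 13.2% and 17.0% in concentrate cells and 12.3% and 16.3% in milk-only cells.

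Hay was also highest within other keratinocytes and within cycling-like cells, the classes that hold most keratinocytes. In other keratinocytes, the clusters that the marker rule named neither cycling-like nor differentiated, the share was 17.05% with hay, 14.96% with concentrate and 14.97% with milk only. The concentrate over milk-only ratio was 0.999 there (0.998 to 1.001), so the higher concentrate share over all keratinocytes was not seen in this class. In cycling-like cells, led by TOP2A and KIF23 in one cluster and ASPM and PLK1 in the other, the share was 16.85% in 1013 hay cells, 13.89% in 665 concentrate cells and 13.29% in 334 milk-only cells. The ratios were 1.268 for hay over milk only (1.264 to 1.271), 1.045 for concentrate over milk only (1.042 to 1.048) and 0.825 for concentrate over hay (0.823 to 0.827). A further run set the same minimum of 2263 UMIs per cell in every library and clustered the cells anew. The concentrate over milk-only log2 ratio in cycling-like cells was then 0.0013, against 0.06 here. The minimum and the new assignment of cells to classes were not examined apart. Whether the ratios differ between the classes was not tested.

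Differentiated keratinocyte-like cells, marked by CNFN and KRTDAP of the horny layer, had the lowest share of the keratinocyte classes in each library. It was 12.53% in 24 hay cells, 12.43% in 40 concentrate cells and 11.73% in 752 milk-only cells. Relative to other keratinocytes of the same library this was 0.735 times (0.726 to 0.744) with hay, 0.831 times (0.825 to 0.836) with concentrate and 0.783 times (0.782 to 0.785) with milk only. The class is 752 of 3425 milk-only keratinocytes but few of the others. Without it the shares over keratinocytes were 17.01% with hay, 14.74% with concentrate and 14.67% with milk only, which leaves concentrate and milk only nearly equal. Cycling-like cells were also below other keratinocytes in each library. The ratio was 0.988 (0.986 to 0.990) with hay, 0.928 (0.927 to 0.930) with concentrate and 0.888 (0.886 to 0.890) with milk only. Other keratinocytes include cluster 4, which the marker rule did not name cycling-like although CDCA7 and the cycling marker MCM6 were among its leading genes. Its share was 18.76% with hay and 17.31% with concentrate, and the class ratio without it was not computed.

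**Figure D1:**
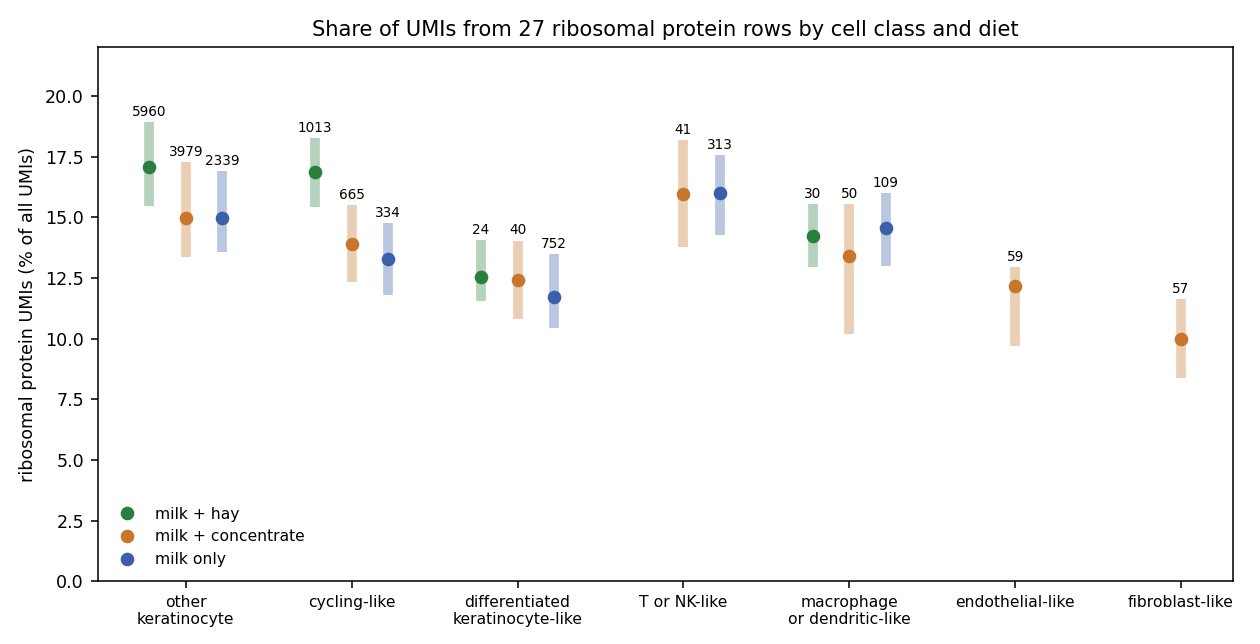
Share of UMIs from the ribosomal protein rows (y axis, percent of all UMIs) by cell class and diet. Points are shares of summed UMIs, bars span the lower to the upper quartile over cells, and numbers are cells (groups of 20 or more are drawn). Hay stands above the other libraries in other and cycling-like keratinocytes, at 17.05% and 16.85%, while the T or NK-like cells with concentrate and with milk only lie together.

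The classes outside the keratinocytes were too small in the hay library for a comparison with it. T or NK-like cells, marked by IL17F and CTSW, had a share of 15.95% in 41 concentrate cells and 15.98% in 313 milk-only cells, a ratio of 0.998 (0.982 to 1.014). The hay library held 4 such cells. Macrophage or dendritic-like cells, marked by IL1B, had 14.23% in 30 hay cells, 13.42% in 50 concentrate cells and 14.56% in 109 milk-only cells. The fibroblast-like cells, found in the concentrate library only (57 cells), had the lowest share of any class at 9.98%, and 59 endothelial-like cells of that library had 12.15%.

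Clusters that more than 1 library filled allow a closer comparison. The other keratinocytes were mostly library-specific: cluster 0, led by FBP1, held 3256 hay cells, cluster 1, led by CDH7, held 2571 concentrate cells, and clusters 5 and 6, led by GPNMB and MMP13, held 1204 and 1086 milk-only cells. In each of 5 keratinocyte clusters with at least 50 cells from both diets, the concentrate share was below the hay share. It was 15.35% with concentrate and 16.06% with hay in cluster 0, 17.84% and 18.29% in cluster 2, 15.75% and 16.87% in cycling cluster 3, 17.31% and 18.76% in cluster 4, and 17.97% and 19.05% in cluster 9. The concentrate over hay ratios ranged from 0.923 in cluster 4 to 0.975 in cluster 2, each closer to 1 than the 0.866 of all keratinocytes. Cluster 9, counted with the other keratinocytes, had few genes, almost no mitochondrial UMIs and the differentiation gene KRTDAP among its leading genes, and without it the shares moved to 16.95% with hay and 14.68% with concentrate. Cluster 6, whose leading genes included the early-response genes ATF3 and ZFP36, had a share of 15.63%, and without it the milk-only share was 13.37%.

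Cycling cluster 3 was the only keratinocyte cluster with at least 50 cells of every diet. Its share was 16.87% in 1003 hay cells, 15.75% in 185 concentrate cells and 13.95% in 200 milk-only cells. The hay over milk-only ratio was 1.210 (1.206 to 1.213) and the concentrate over milk-only ratio 1.129 (1.124 to 1.134). In cycling cluster 8 the share was 13.38% in 480 concentrate cells and 12.17% in 134 milk-only cells, a ratio of 1.099 (1.095 to 1.103). Within both cycling clusters, concentrate was thus farther above milk only than in the class as a whole. Of the concentrate cycling cells, 480 of 665 lay in cluster 8, the cluster with the lower share.

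**Figure D2:**
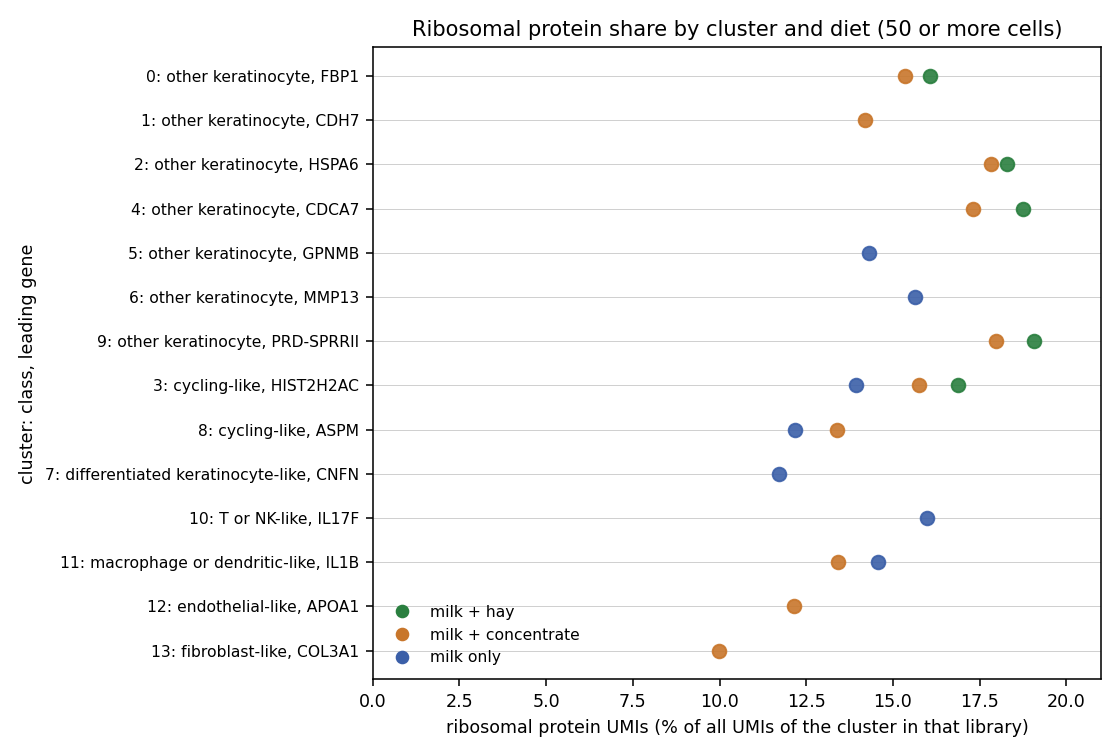
Share of UMIs from the ribosomal protein rows (x axis, percent) for each cluster and library with at least 50 cells, labelled by class and leading gene. Where hay and concentrate fill the same cluster the hay point lies to the right, and in cluster 3 the order is hay 16.87%, concentrate 15.75%, milk only 13.95%.

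The share was also set against depth and mitochondrial UMIs. Its Spearman coefficient with UMIs per cell was weak, at -0.09 in 6997 hay cells, -0.25 in 4684 concentrate cells and 0.04 in 3425 milk-only cells. Keratinocytes with 2500 to 5000 UMIs had shares of 17.2% with hay, 16.4% with concentrate and 12.9% with milk only. At 5000 to 10000 UMIs the shares were 16.98%, 15.01% and 15.36%, and at 10000 to 20000 UMIs 16.7%, 14.4% and 14.9%, for hay, concentrate and milk only. Hay was the highest in each of these ranges, but milk only stood above concentrate in the deeper of them. Keratinocytes with under 2500 or with 20000 or more UMIs lay outside these ranges. Above the upper quartile of UMIs per cell in each library, the share was 16.77% with hay, 14.21% with concentrate and 13.33% with milk only. Those cells began at 7588, 11670 and 18267 UMIs, so they were not of like depth. Thinning every keratinocyte to 2000 UMIs gave 17.08%, 15.04% and 14.35% for hay, concentrate and milk only, leaving out 0, 69 and 219 shallower cells. Across cells the share correlated negatively with the percentage of mitochondrial UMIs, with Spearman coefficients of -0.70 in hay cells, -0.59 in concentrate cells and -0.24 in milk-only cells. Both percentages have the same denominator, and cells of 1 library share its preparation. With mitochondrial UMIs taken out of the denominator of the share, the coefficients were -0.48 with hay, -0.43 with concentrate and -0.04 with milk only. Counted against UMIs without the mitochondrial genes, the share was 19.02% with hay, 16.54% with concentrate and 15.40% with milk only. The barcodes left out for 20% or more mitochondrial UMIs had lower shares of 9.06% with hay, 5.18% with concentrate and 3.80% with milk only. The part of depth and mitochondrial content in the difference between diets was not tested.

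**Figure D3:**
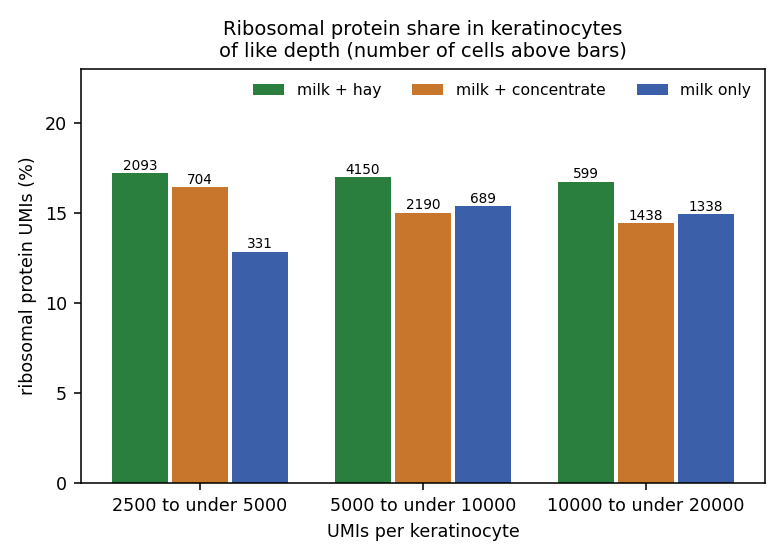
Share of UMIs from the ribosomal protein rows (y axis, percent, from 0) in keratinocytes of 3 ranges of UMIs per cell (x axis), with the number of cells above each bar. Hay is highest in each range, and milk only goes from 12.9% in the shallowest range to 15.4% and 14.9% in the deeper ones.

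The single genes spanned a wide range. Of the 27 rows, 24 were measured, with at least 10 CPM over keratinocytes in at least 1 library, and 21 of these stood above 1000 CPM in every library. In hay over milk only, 21 of the 24 were higher and 3 lower with an interval that excludes 1, where 27.3% of all 4755 measured genes were higher and 55.1% lower. Past 1.5-fold, 0 were higher, where 5.22% of all genes were, and 1 was lower, RPS19BP1, where 20.7% of all genes were. RPS19BP1 reached 10 CPM only with milk only, the library where it is high, so its call depends on the filter, and at 50 CPM 0 were lower. The median log2 ratio of the 24 was 0.21, against -0.16 over all measured genes. In concentrate over milk only, 15 were higher and 9 lower, where 43.2% of all genes were higher and 37.7% lower, with a median of 0.06 against 0.04 over all genes. None of the 24 passed 1.5-fold, where 9.53% of all genes were higher and 13% lower. In concentrate over hay, 4 were higher and 18 lower, where 60.1% of all genes were higher and 17.9% lower, with a median of -0.18 against 0.19 over all genes. Again 0 of the 24 passed 1.5-fold, where 13.8% of all genes were higher and 1.89% lower. Within other keratinocytes 0 of 23 measured members passed 1.5-fold in any of the 3 comparisons. Of all genes there, 5.69% were higher and 21.9% lower in hay over milk only, 9.02% and 14% in concentrate over milk only, and 13.3% and 2.24% in concentrate over hay. Within cycling-like cells 0 of 24 were higher and 2 lower in hay over milk only, RPS27L and RPS19BP1, where 4.5% of all genes were higher and 26.2% lower. In those cells 0 members passed it in concentrate over milk only, where 8.26% of all genes were higher and 13.4% lower, or in concentrate over hay, where 17.4% were higher and 2.57% lower.

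Scaling by median of ratios, which brings the median of all genes near 0, gave member medians of 0.37, 0.02 and -0.37 for hay over milk only, concentrate over milk only and concentrate over hay, with 4 of 24 members then higher past 1.5-fold in hay over milk only, where 9.25% of all genes were under that scaling, and 1 lower, where 15.3% were. Under it 0 members passed 1.5-fold in concentrate over milk only, where 8.16% of all genes were higher and 13.7% lower, or in concentrate over hay, where 6.81% were higher and 4.63% lower. That scaling adds 0.16, -0.04 and -0.19 to every log2 ratio of the 3 comparisons, so ratios smaller than these can change sign under it. On the CPM scale, the member medians for hay and for concentrate over milk only were 0.13 and 0.0032 without the differentiated keratinocyte-like class, and 0.32 and 0.13 without cluster 6, which held 1086 milk-only cells.

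Among the most abundant, RPS2, a small-subunit protein, stood at 13984 CPM with hay, 14205 CPM with concentrate and 12862 CPM with milk only. It was 1.087 times higher in hay than in milk only, and 1.016 times higher in concentrate than in hay, a log2 ratio of 0.02 that becomes -0.17 under median-of-ratios scaling. RPL10, which joins the large subunit late in its assembly, stood at 13199 CPM with hay, 10217 CPM with concentrate and 10061 CPM with milk only, so that hay alone was high. Its concentrate over hay ratio was 0.774 (0.771 to 0.777). RPL32 of the large subunit was at 11189 CPM with hay, 9930 CPM with concentrate and 9801 CPM with milk only.

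In RPL18, RPS10 and RPL36A-HNRNPH2, which had high hay over milk-only ratios, concentrate lay between the other diets. RPL18 of the large subunit was at 11168 CPM with hay, 9011 CPM with concentrate and 8038 CPM with milk only, a hay over milk-only ratio of 1.389 (1.384 to 1.395). RPS10 of the small subunit stood at 8708 CPM with hay, 7476 CPM with concentrate and 6347 CPM with milk only, a ratio of 1.372 (1.365 to 1.378). The row RPL36A-HNRNPH2 stood at 1606 CPM with hay, 1491 CPM with concentrate and 1227 CPM with milk only, a ratio of 1.309 (1.295 to 1.324).

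RPL28, RPL8 and RPL11 of the large subunit had hay over milk-only log2 ratios of 0.35, 0.31 and 0.31. RPL11, which with RPL5 binds MDM2 and so stabilises p53 when ribosome assembly is disturbed, stood at 8992 CPM with hay, 7867 CPM with concentrate and 7250 CPM with milk only. RPS19, needed to mature the small-subunit RNA and mutated in human Diamond-Blackfan anaemia, was at 11635 CPM with hay, 9856 CPM with concentrate and 10012 CPM with milk only. RPL23A, at the exit of the peptide tunnel, had a hay over milk-only log2 ratio of 0.17.

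Other genes had low hay over milk-only ratios. RPS27A, made as a fusion with ubiquitin, stood at 10577 CPM with hay, 9189 CPM with concentrate and 9895 CPM with milk only, so that concentrate was the lowest. RPS3, at the mRNA entry and also known for a role in DNA repair, stood at 5112 CPM with hay, 4519 CPM with concentrate and 4826 CPM with milk only, in the same order. RPS25 followed that order at 5001, 4321 and 4590 CPM. RPL29 had the lowest concentrate over hay ratio of the measured rows, at 5012 CPM with hay, 3858 CPM with concentrate and 4549 CPM with milk only. Its concentrate over milk-only ratio was 0.848 (0.843 to 0.854) and its concentrate over hay ratio 0.770 (0.765 to 0.775). RPS21 was at 1287 CPM with hay, 1278 CPM with concentrate and 1206 CPM with milk only.

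RPL22, a large-subunit protein not needed for general translation and known from mice for a role in T cell development, ran the other way. It stood at 3265 CPM with hay, 3476 CPM with concentrate and 3530 CPM with milk only, a hay over milk-only log2 ratio of -0.11 that became 0.05 under median-of-ratios scaling. In cycling-like cells it stood at 3028 CPM with hay, 3023 CPM with concentrate and 3018 CPM with milk only. In other keratinocytes it stood at 3329, 3610 and 3808 CPM in the same order.

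**Figure D4:**
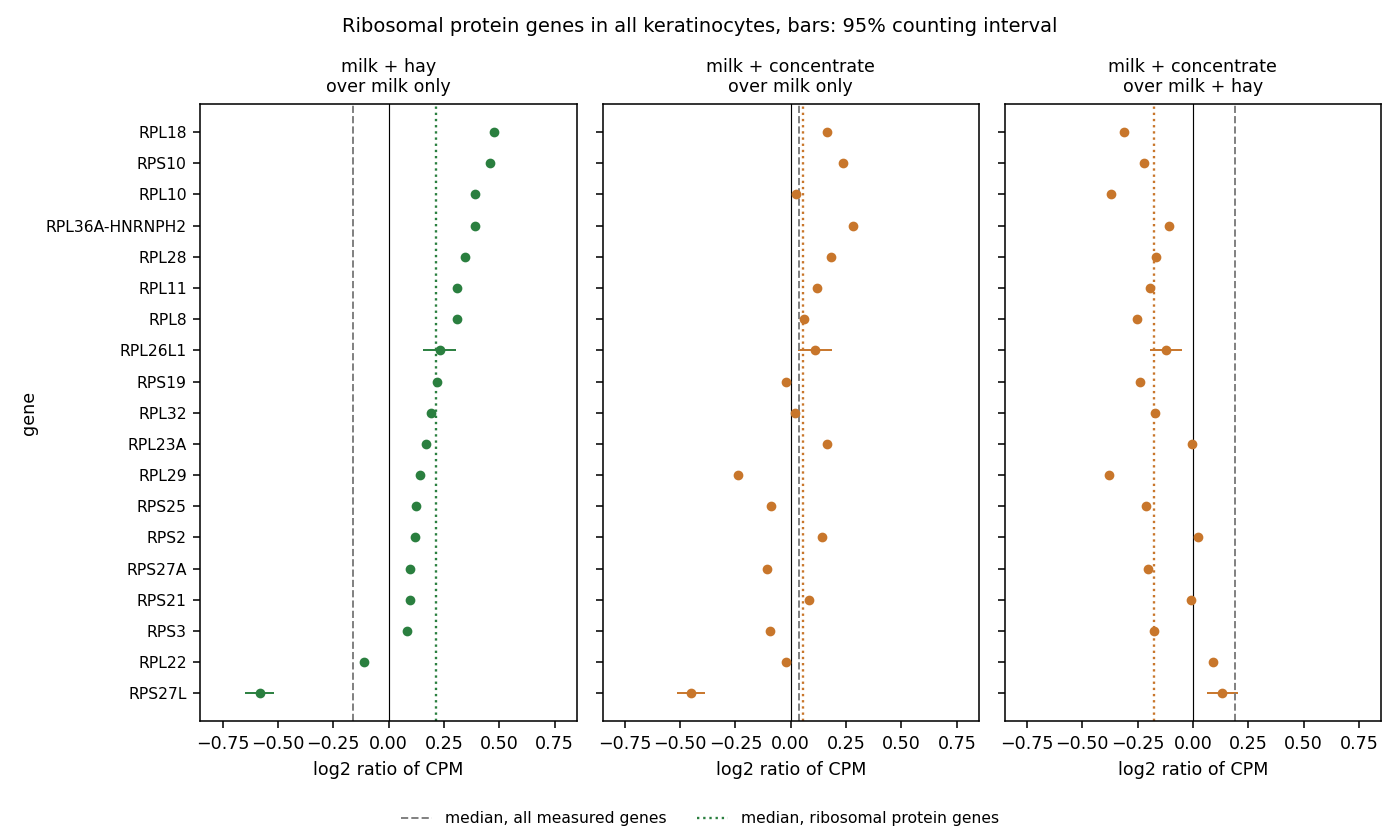
Log2 ratio of CPM over all keratinocytes (x axis) for 19 of the 23 rows with a mean of at least 10 CPM (y axis, ordered by the hay over milk-only ratio), with 95% counting intervals. The dotted line is the median of the measured ribosomal protein rows and the dashed line that of all measured genes: 0.21 against -0.16 in hay over milk only, 0.06 against 0.04 in concentrate over milk only and -0.18 against 0.19 in concentrate over hay.

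The measured paralogues, RPS27L and RPL26L1, stood at 59.6 to 104 CPM in the libraries, while 21 other rows stood above 1000 CPM. RPS27L, a paralogue of RPS27 and in human cells a target of p53, stood at 69.3 CPM with hay, 75.9 CPM with concentrate and 104 CPM with milk only. It was the row with the lowest hay over milk-only ratio among those above 50 CPM, 0.668 (0.638 to 0.698), just inside 1.5-fold, and its concentrate over milk-only ratio was 0.732 (0.700 to 0.765). The order held in other keratinocytes, with 68.5, 74.9 and 98.9 CPM, and in cycling-like cells, with 72.0, 78.5 and 111 CPM, for hay, concentrate and milk only. RPS19BP1, the SIRT1 regulator, had the same order at 5.77 CPM with hay, 8.11 CPM with concentrate and 10.8 CPM with milk only. Its hay over milk-only ratio was 0.536 (0.459 to 0.623), a description, since the row passed the filter on low levels only through the milk-only library.

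RPL26L1, a paralogue of RPL26, stood at 69.9 CPM with hay, 64.3 CPM with concentrate and 59.6 CPM with milk only, with a hay over milk-only log2 ratio of 0.23 near the members' median. It also varied with cell class. In cycling-like cells it stood at 89.0 CPM with hay, 86.8 CPM with concentrate and 89.5 CPM with milk only, against 65.4, 59.3 and 58.2 CPM in other keratinocytes of the same libraries. The cycling over other ratio was 1.36 with hay (1.26 to 1.48), 1.46 with concentrate (1.35 to 1.59) and 1.54 with milk only (1.40 to 1.69). Of 23 members measured in both classes of every library, RPL26L1 was the 1 that was higher in cycling-like cells in every library by its interval, while 11 were lower. Among all 4104 genes measured this way, 30.5% were higher and 5.04% lower. Such a gene could pass the filter only through the class where it was high. Past 1.5-fold in every library, 0 members were higher or lower, where 8.09% of all genes were higher and 0.439% lower. Among the 11, RPL22 had log2 ratios of -0.14 with hay, -0.26 with concentrate and -0.34 with milk only.

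Members below the limit of measurement were RPS26, RPL3L and RPL10L. RPS26, of the small subunit, had 31, 27 and 54 UMIs over the hay, concentrate and milk-only keratinocytes, or 0.69, 0.61 and 1.14 CPM. These are counts on the row with that symbol. Whether RPS26 transcripts were counted on any of the 9204 rows without a symbol was not tested. RPL3L, the paralogue of RPL3 known from striated muscle, had 2, 9 and 11 UMIs. RPL10L, the testis paralogue of RPL10, had 2 UMIs with hay and 0 with concentrate and with milk only, which allows up to 0.0674 and 0.0633 CPM. RPL10 itself was found in every kept cell.

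The members' ratios in other keratinocytes and in cycling-like cells lay in a like order, with Spearman coefficients over 23 members of 0.89 for hay over milk only, 0.93 for concentrate over milk only and 0.92 for concentrate over hay. These cells come from the same libraries, and the coefficients are a description. Over 22 combinations of cluster and library with at least 50 cells, RPL18 and RPL8 tracked the sum of the other members closely, with Spearman coefficients of 0.96 and 0.95 of CPM. RPS27L, at -0.16, and RPL26L1, at 0.09, did not track it, and the next lowest was RPS21 at 0.75. These points share libraries and depth. The fibroblast-like cells had the lowest level of 15 of the 23 members, and cluster 9 or the hay cells of cluster 4 the highest of 15.

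The make-up of the ribosomal protein pool, each member as a share of all member UMIs, was also set against that of other keratinocytes of the same library. In T or NK-like cells of the milk-only library, RPL26L1 was 0.0168% of the pool, against 0.0389% in other keratinocytes, a log2 ratio of -1.21 that rests on 47 UMIs in the T or NK-like cells. RPS27L had a log2 ratio of -0.67 there, and RPS19 one of -0.54, while RPL28 and RPL11 were both at 0.40. RPS19 was 5.03% of the pool in T or NK-like cells and 7.30% in other keratinocytes. In macrophage or dendritic-like cells of the same library RPL26L1 was at -0.83 and RPL22 at -0.43. In endothelial-like cells of the concentrate library RPS27L was at 1.36 from 28 UMIs, and RPL28 and RPS2 were both at -0.62. In fibroblast-like cells RPL23A was at 0.56 and RPL10 at 0.52. Differentiated keratinocyte-like cells of the milk-only library, with the lowest total share of the keratinocyte classes, ranged from -0.28 for RPS19 to 0.57 for RPS27L. The latter was just inside 1.5-fold.

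**Figure D5:**
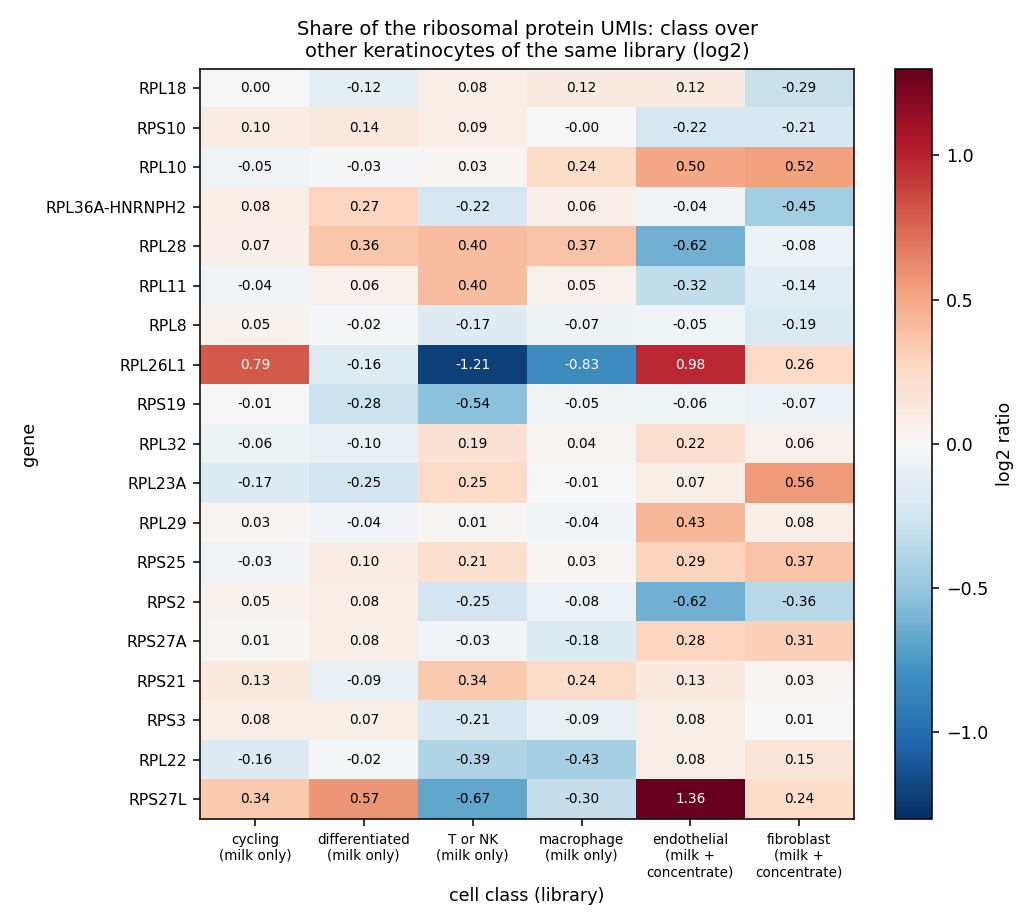
Log2 ratio of each member's share of the ribosomal protein UMIs in a cell class over that in other keratinocytes of the same library (columns are classes with their library, rows are the same 19 genes, colour and number give the ratio). RPL26L1 ranges from -1.21 in T or NK-like cells (milk only, 47 UMIs) to 0.98 in endothelial-like cells (concentrate, 17 UMIs). RPS27L reaches 1.36 in the endothelial-like cells (28 UMIs).

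Other genes of translation were examined in lists, with the values on the CPM scale. Median-of-ratios scaling moves their medians as it moves all genes, so that in hay over milk only the initiation factors go to 0.15 and in concentrate over hay the mitochondrial ribosome goes to -0.18. Of 6 further ribosomal genes named outside the rule, 3 were measured, among them RPSA and FAU. RPSA stood at 8848 CPM with hay, 7484 CPM with concentrate and 7561 CPM with milk only. All 3 were higher in hay than in milk only and lower in concentrate than in both other diets by their intervals. By interval, 27.3% of all genes were higher in hay over milk only. Of all genes, 37.7% were lower in concentrate over milk only and 17.9% lower in concentrate over hay. The log2 medians of the 3 were 0.11 for hay over milk only, -0.14 for concentrate over milk only and -0.24 for concentrate over hay. RACK1, a scaffold protein on the small subunit, stood at 10727 CPM with hay, 8533 CPM with concentrate and 7188 CPM with milk only, log2 ratios of 0.58, 0.25 and -0.33 in the same 3 comparisons. It belongs to a list of other mRNAs with the pyrimidine-rich start, of which 9 of 22 were measured. The median of that list was 0.05, 0.09 and -0.18. In concentrate over milk only 1 of the 9 was lower past 1.5-fold, where 13% of all genes were. It was the initiation factor subunit EIF3F, at -0.72, which is also on the list of initiation factors.

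Initiation factors moved in both directions. Of 33, 26 were measured, with a median log2 ratio of -0.01 in hay over milk only, -0.10 in concentrate over milk only and -0.10 in concentrate over hay. In hay over milk only 0 were higher and 3 lower past 1.5-fold: EIF1 at -0.94, EIF4G2 at -0.66 and EIF5 at -0.63. Of all genes 5.22% were higher and 20.7% lower in that comparison, a larger share lower than of the initiation factors. EIF1, which guards the choice of start codon, stood at 260 CPM with hay, 275 CPM with concentrate and 500 CPM with milk only. In concentrate over milk only 1 was higher, EIF4G1 at 0.60, and 4 were lower, EIF1, EIF6, EIF3F and EIF3I, where 9.53% of all genes were higher and 13% lower. In concentrate over hay 1 was higher, EIF5 at 0.62, where 13.8% of all genes were. Of 10 elongation factors 3 were measured and 0 passed 1.5-fold, among them EEF1G at 3201 CPM with hay, 2825 CPM with concentrate and 2452 CPM with milk only.

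Most measured ribosome assembly factors were lower with concentrate than with hay. Of 50 genes 32 were measured, and in concentrate over hay 24 of these were lower and 2 higher by their intervals, where 17.9% of all genes were lower and 60.1% higher, with a median log2 ratio of -0.24. Past 1.5-fold 0 were higher and 3 lower, where 13.8% of all genes were higher and 1.89% lower: NHP2 at -1.06, RRP9 at -0.76 and UTP4 at -0.61. All 3 were at low level: NHP2, of the particles that modify ribosomal RNA, was at 6.25 CPM with concentrate and 13.04 CPM with hay. In hay over milk only the median was 0.11, with 4 higher past 1.5-fold, PES1, RRP9, NOLC1 and RRS1, at 0.73, 0.63, 0.62 and 0.61, and 0 lower, where 5.22% of all genes were higher and 20.7% lower. PES1, RRS1 and NHP2 were below 10 CPM in the library where they were low, and passed the filter only through the libraries where they were high, so their calls depend on it. In concentrate over milk only the median was -0.12, with PES1 higher at 0.59 and 3 lower, NHP2 at -1.43, POLR1D at -0.97 and FBL at -0.66. Of all genes, 9.53% were higher and 13% lower past 1.5-fold in that comparison. The nucleolar methyltransferase FBL stood at 68.6 CPM with concentrate, 100.2 CPM with hay and 108 CPM with milk only.

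Genes of the mitochondrial ribosome, a separate particle, showed no common direction. Of 77 genes 47 were measured, with medians of 0.05, 0.08 and 0.02 for hay over milk only, concentrate over milk only and concentrate over hay. In hay over milk only 3 were higher past 1.5-fold and 3 lower, among them MRPL32 at 0.72 and MRPL21 at -0.94, where 5.22% of all genes were higher and 20.7% lower. In concentrate over milk only 3 were higher and 4 lower, where 9.53% and 13% of all genes were. In concentrate over hay 0 passed in either direction, where 13.8% of all genes were higher and 1.89% lower.

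Of 28 genes of mTOR and growth control 10 were measured. MYC, a transcription factor that drives ribosomal gene expression, stood at 30.4 CPM with hay, 19.5 CPM with concentrate and 49.6 CPM with milk only, log2 ratios of -0.71 for hay over milk only, -1.35 for concentrate over milk only and -0.64 for concentrate over hay. SESN3, an inhibitor of mTOR signalling, stood at 12.9 CPM with hay, 51.8 CPM with concentrate and 23.2 CPM with milk only, log2 ratios of -0.85, 1.16 and 2.01 in the same comparisons. In concentrate over hay RPS6KA1 and TSC2 were also higher past 1.5-fold, at 0.71 and 0.67, where 13.8% of all genes were higher.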

How the data were processed

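The authors deposited raw UMI counts (counts of distinct transcript molecules) per gene and cell barcode for 3 droplet libraries. Cell Ranger made them, in version 3.1 per the submitters' processing notes and 5.0.0 per the file headers. For the genome build, annotation and barcode selection, nothing is stated in the sources read. Rows without a symbol, 9204 of 26247, were not assigned to any gene.

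A barcode was kept if it had 500 or more genes and less than 20% of its UMIs in the 13 mitochondrial genes. Counts were scaled to 10000 per cell and logged. The 2000 most variable genes within libraries, with the ribosomal protein rows left out, gave 30 principal components, 15 neighbours and 14 Leiden clusters at resolution 0.6 (scanpy 1.11.5, leidenalg 0.10.2), without integration and without a doublet caller. A cluster took the class whose markers had the highest median fold, with at least 3 markers at 20 CPM and 3 at 2-fold. Clusters with no such class were counted as other keratinocytes.

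UMIs were summed per library and class and divided by the total (CPM or percent). No test between diets was possible, each having 1 library. Intervals at 95% were exact Clopper-Pearson for shares, exact Poisson for levels and exact conditional binomial for ratios (scipy 1.17.1), and cover counting error alone. Measured genes had 10 CPM or more in 1 library, and a gene was called past 1.5-fold with an interval that excludes 1. On simulated counts for hay over milk only (4324 genes), 50 of 50 genes set at 2-fold were called and 0 of 4124 unchanged ones. Of 50 genes set at 1.25-fold and 50 set at 0.8-fold, 0 were called. The simulated counts held counting error alone, as the intervals do, and no spread between lambs or libraries.

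The members, gene lists and class rules were chosen with earlier results of these data known. Named members are the 6 most abundant, the 6 highest and 6 lowest ratios in each comparison relative to the median member (at least 50 CPM), paralogues and those with known roles beside translation. RPL5, RPS6 and RPL13A of that rule were not analysed here, and a few others it names are not reported here. Alternatives covered barcode filters, denominators, scaling, level filters, clustering and cell weighting.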

Additional observations from a re-analysis of the deposited data

Results flagged for a closer look

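In 4 cases the concentrate library moved one way in 1 cell class and the opposite way in another, with counting intervals that exclude 1 on both sides. In none was the difference between classes tested, and all of the ratios are within 10% of 1. The ribosomal protein share in concentrate over milk only was 1.045 in cycling-like cells and 0.922 in macrophage or dendritic-like cells. Under the same minimum of 2263 UMIs per cell in every library the cells were also clustered anew. The cycling-like log2 ratio was then 0.0013 (-0.0030 to 0.0057), which no longer excludes equal shares. The opposite directions thus did not hold under that setting, in which the cells of the class could also change. The macrophage or dendritic-like value comes from 50 concentrate and 109 milk-only cells. RPL10 in concentrate over milk only was 0.967 in other keratinocytes and 1.043 in cycling-like cells. RPL23A in concentrate over hay was 1.014 in other keratinocytes and 0.948 in cycling-like cells, and RPS2 was 1.029 and 0.968. Most concentrate cycling cells lay in cluster 8 and most hay cycling cells in cluster 3.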

How the results depend on the processing

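No paired analysis was possible because each diet has 1 library and no replicate number, and for the same reason no replicate could be left out. The share of ribosomal protein UMIs kept the order hay, concentrate, milk only under every alternative run, on the scales given here. These shares were over keratinocytes, except that all deposited barcodes include every cell class. The order did not hold in each range of depth. In keratinocytes with 5000 to 10000 UMIs milk only stood above concentrate, at 15.36% against 15.01%. With 10000 to 20000 UMIs it did so at 14.93% against 14.43%. The shares with hay, concentrate and milk only were 19.02%, 16.54% and 15.40% with totals without mitochondrial genes. With totals without the 50 most abundant other genes they were 30.97%, 26.53% and 24.86%. With every cell counted alike they were 17.06%, 15.02% and 14.17%. With keratinocyte classes weighted alike they were 15.48%, 13.76% and 13.33%. Without the differentiated class they were 17.01%, 14.74% and 14.67%. Without cluster 9 they were 16.95%, 14.68% and 14.11%. Without cluster 6 they were 16.99%, 14.70% and 13.37%. Over all deposited barcodes they were 15.38%, 12.40% and 12.31%. With cells thinned to 2000 UMIs they were 17.08%, 15.04% and 14.35%. With at least 1000 genes per cell they were 16.72%, 14.54% and 14.16%. Under 10% mitochondrial UMIs they were 18.31%, 15.93% and 14.97%. With the same minimum of 2263 UMIs in every library they were 16.99%, 14.71% and 14.14%. The median log2 ratio of the members in hay over milk only, concentrate over milk only and concentrate over hay was 0.25, 0.099 and -0.17 with totals without mitochondrial genes. With totals without the 50 most abundant other genes it was 0.26, 0.091 and -0.19. With every cell counted alike it was 0.19, 0.086 and -0.17. With keratinocyte classes weighted alike it was 0.17, 0.025 and -0.14. Without the differentiated class it was 0.13, 0.0032 and -0.18. Without cluster 9 it was 0.21, 0.054 and -0.17. Without cluster 6 it was 0.32, 0.13 and -0.18. Over all deposited barcodes it was 0.31, -0.000761 and -0.28. With at least 1000 genes per cell it was 0.18, 0.033 and -0.17. Under 10% mitochondrial UMIs it was 0.22, 0.059 and -0.18. With the same minimum of 2263 UMIs in every library it was 0.21, 0.054 and -0.17. Under median-of-ratios scaling it was 0.37, 0.020 and -0.37. Under that scaling over other genes only it was 0.38, 0.020 and -0.37. With no filter on low levels it was 0.20, 0.038 and -0.18. With at least 50 CPM it was 0.22, 0.058 and -0.18. It turned negative for concentrate over milk only over all barcodes, and the cause was not tested.

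In other keratinocytes the log2 ratio of the share in the same 3 comparisons was 0.23, 0.047 and -0.18 with totals without mitochondrial genes. With at least 1000 genes per cell it was 0.10, -0.075 and -0.18. Under 10% mitochondrial UMIs it was 0.20, 0.000340 and -0.20. With the same minimum of 2263 UMIs in every library it was 0.23, 0.040 and -0.19. With the members in the clustering it was 0.20, 0.0092 and -0.19. At resolution 0.3 it was 0.12, -0.073 and -0.19. At resolution 1.2 it was 0.23, 0.045 and -0.18. The sign of concentrate over milk only thus depended on the setting in this class. Apart from the change of totals, each of these settings clustered the cells anew, so the cells of a class could also change. In cycling-like cells the ratios were 0.37, 0.10 and -0.27 with totals without mitochondrial genes. With at least 1000 genes per cell they were 0.35, 0.076 and -0.27. Under 10% mitochondrial UMIs they were 0.34, 0.11 and -0.23. With the same minimum of 2263 UMIs in every library they were 0.27, 0.0013 and -0.27. With the members in the clustering they were 0.31, 0.042 and -0.27. At resolution 0.3 they were 0.31, 0.048 and -0.27. At resolution 1.2 they were 0.30, 0.028 and -0.27.

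The count of members past the fold stayed at 0 or 1 elsewhere. In hay over milk only, 4 members were higher under median-of-ratios scaling and 4 under that scaling over other genes. The lower count was 3 with no filter on low levels, 2 with every cell counted alike, 2 without cluster 9 and 2 without cluster 6. It was 0 at 50 CPM, 0 at 2-fold, 0 over all barcodes and 0 without the differentiated class. In concentrate over milk only 1 was lower with no filter, and in concentrate over hay 1 was higher with classes weighted alike. In the main setting 20.7% of all genes were lower in hay over milk only. There, 13% were lower in concentrate over milk only and 13.8% higher in concentrate over hay. Apart from median-of-ratios scaling, the share of all genes under the alternatives was not computed. Under median-of-ratios scaling the list medians in hay over milk only were 0.27 for the further ribosomal genes, 0.25 for elongation factors, 0.15 for initiation factors, 0.21 for other pyrimidine-start mRNAs, 0.27 for assembly factors, 0.21 for the mitochondrial ribosome and -0.037 for growth control. Under median-of-ratios scaling the list medians in concentrate over hay were -0.44 for the further ribosomal genes, -0.21 for elongation factors, -0.29 for initiation factors, -0.37 for other pyrimidine-start mRNAs, -0.44 for assembly factors, -0.18 for the mitochondrial ribosome and 0.027 for growth control. Without the differentiated class, elongation factors were at 0.31 and other pyrimidine-start mRNAs at -0.050 in hay over milk only. The causes of these movements were not tested. Of 1242 single-gene values under the alternatives, 45 had the other sign. No gene among them, all with at least 50 CPM, passed 1.5-fold in the main setting, so there was no call to reverse. RPL26L1 was higher in cycling-like than in other keratinocytes in each library under the alternatives run, at log2 ratios of 0.38 to 0.69. Leaving out clusters 6 or 9, and the list medians under another scaling or without the differentiated class, were added after seeing the data. Summing rows of the same symbol could not be run, since no member symbol is on more than 1 row.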
